A study of Mus musculus with 18 samples.

Results

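Brush cells, the rare chemosensory cells of the airway lining, were compared with the tracheal epithelium at large by RNA sequencing of sorted cells. The comparison used 14 of the series' 18 samples, 7 of brush cells and 7 of EpCAM+ epithelial cells, which were the columns of these 2 groups in the deposited table of read counts. All mice were naive B6.Cg animals with the transgene Tg(RP23-268L19-EGFP)2Mik, a bacterial artificial chromosome in which regulatory sequence of Chat, the choline acetyltransferase gene, drives eGFP. Both groups therefore carried the reporter. Tracheal cells were freed with dispase and then papain, cells that took up propidium iodide were left out, and the rest were sorted into a lysis buffer with an RNA-protecting reagent. The brush gate was CD45-, EpCAM+ and eGFP+, and the EpCAM+ gate was CD45- and EpCAM+ with no stated exclusion of eGFP+ cells. The labels give no age or sex and do not say whether each library came from its own animal, so a p-value here reflects the spread of these libraries alone, part of which may be technical.

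Brush cells, also called tuft cells, sit singly among basal, secretory and ciliated cells and carry a tuft of stiff microvilli on their free surface. They sense bitter compounds, metabolites and other signals through G protein-coupled receptors, phospholipase C, release of stored calcium and the cation channel TRPM5. They are known in the airway for acetylcholine, IL-25 and lipid mediators, and they depend on the transcription factor POU2F3. Chat and Epcam, which the reporter and the gates rest on, are not treated as results.

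Defining markers followed the labels. Trpm5 ranged from 1520 to 2948 CPM (counts scaled to the library's normalised size) in the brush libraries, with a median of 2461, and from 0 to 2.50 in the EpCAM+ libraries, with a median of 0.38. Pou2f3 ranged from 138 to 236 CPM (median 203) in brush and from 0 to 4.10 (median 2.07) in EpCAM+ libraries. Krt5, the basal cell keratin, ran the other way, from 2.41 to 39.4 CPM (median 15.9) in brush and from 293 to 1265 (median 1001) in EpCAM+ libraries. For Scgb1a1, the secretory protein of club cells, the brush libraries lay between 9.92 and 189 CPM (median 34.2) and the EpCAM+ libraries between 975 and 18570 (median 3028). The groups did not overlap for any of these 4 markers. Of 15 club and goblet cell genes tested 14 were lower and 1, Spdef, was higher, and of 18 basal cell genes 17 were lower and none higher. Over the 14 and 17 genes called lower, the median brush level was 1.77% and 2.05% of the EpCAM+ level. These medians leave out the members not called lower. The ciliated cell genes Foxj1, Dynlrb2 and Ccdc153 had medians of 5.30, 6.47 and 16.0 CPM in EpCAM+ libraries, and Tubb4b 448. Their medians in brush libraries were 0, 0.552, 0.362 and 401 CPM.

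Library totals were 838328 to 6031711 counts in brush and 2442601 to 6087184 in EpCAM+ cells. Nuclear ribosomal RNA genes took 22.7 to 60.9% of brush counts and 8.76 to 31.4% of EpCAM+ counts. Both groups held 1 library unlike the rest. Brush replicate 4 was the shallowest and richest in ribosomal RNA, with a median rank correlation across genes of 0.801 with its group, and EpCAM+ replicate 5 had the least ribosomal RNA and a median correlation of 0.739, against 0.857 to 0.942 for the other 12 libraries. Counts without these 2 libraries are given beside the results they touch.

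The comparison asked which genes distinguish brush cells from the epithelium they sit in. Of 11254 genes tested, 41.9% were called in either direction: 2198 (19.5%) were higher in brush cells and 2521 (22.4%) were lower, at an adjusted p below 0.05 with edgeR's quasi-likelihood test. Without brush replicate 4 and EpCAM+ replicate 5 the counts were 2713 and 2799. The median fold of the called genes was 2.95 among those higher and 3.5 among those lower, and 404 were higher and 646 lower by over 10-fold. At the far end the order turned, with 133 genes higher and 48 lower by over 100-fold. The 7 brush and 7 EpCAM+ libraries did not overlap for 1144 genes that were higher (10.2% of those tested) and 1247 that were lower (11.1%). In bulk samples such as these, fewer cells of a type and less RNA per cell cannot be told apart.

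The genes called higher took 28.5 to 38.5% of the counts outside ribosomal RNA in brush libraries and 3.8 to 7.6% in EpCAM+ libraries. Those called lower took 10.7 to 13.8% in brush and 47.9 to 54.6% in EpCAM+ libraries. Among called genes without overlap, the largest gains in CPM were in Lrmp, Gnb3, Gnat3, Krt18, Anxa4, Trpm5 and Atp2a3, of which Anxa4 encodes a calcium-dependent membrane-binding protein. The largest losses were in Bpifa1, an antimicrobial protein of airway secretions, Cyp2f2, a cytochrome P450 of club cells, Cbr2, a carbonyl reductase, and Gsto1, a glutathione transferase.

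**Figure D1:**
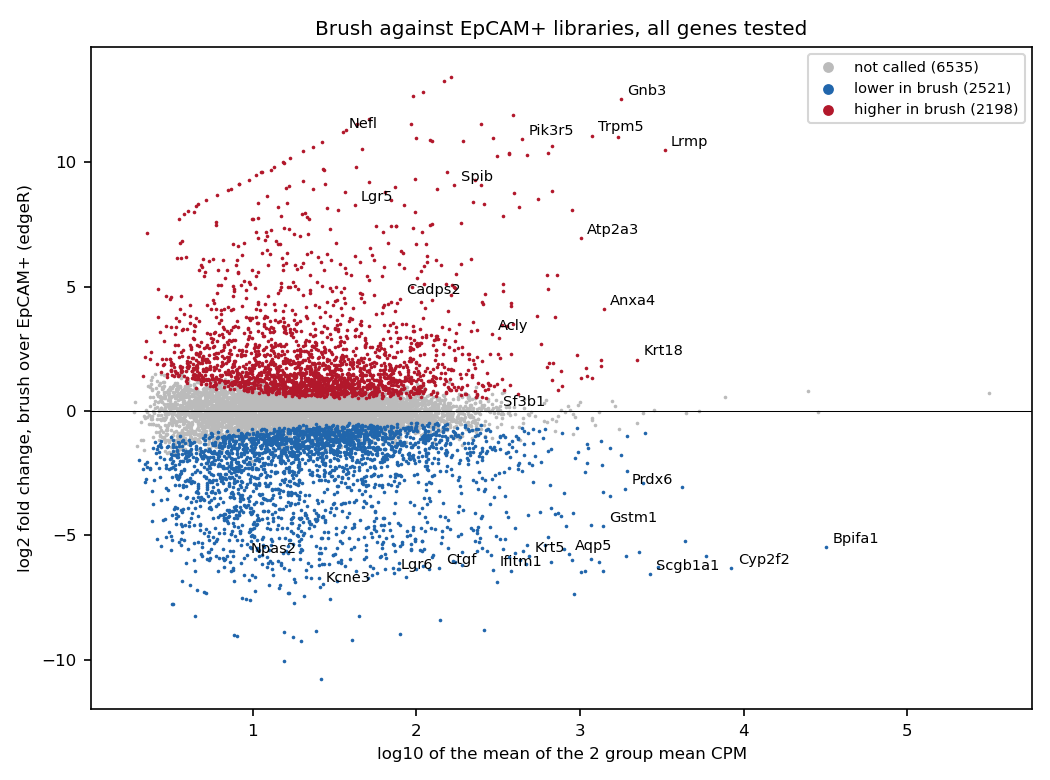
Log2 fold change of brush over EpCAM+ libraries (vertical axis, edgeR) against the log10 of the mean of the 2 group mean CPM (horizontal axis) for 11254 genes, with 2198 called higher in red, 2521 called lower in blue and the rest in grey. Lrmp and Gnb3 lie high at high expression, Bpifa1 and Cyp2f2 low at the highest expression, and Sf3b1 near 0.

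Genes were grouped in 92 lists. Of the members tested, genes of sensing and signal relay were called higher in 40.0% and lower in 20%, and genes of ion transport in 39.6% and 30.6%, against 19.5% and 22.4% of all genes. Genes of growth signalling were higher in 21.3% and lower in 50.6%, and those of cell cycle, survival and stress in 6.29% and 57.3%. Metabolic genes were higher in 11% and lower in 30.8%.

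**Figure D2:**
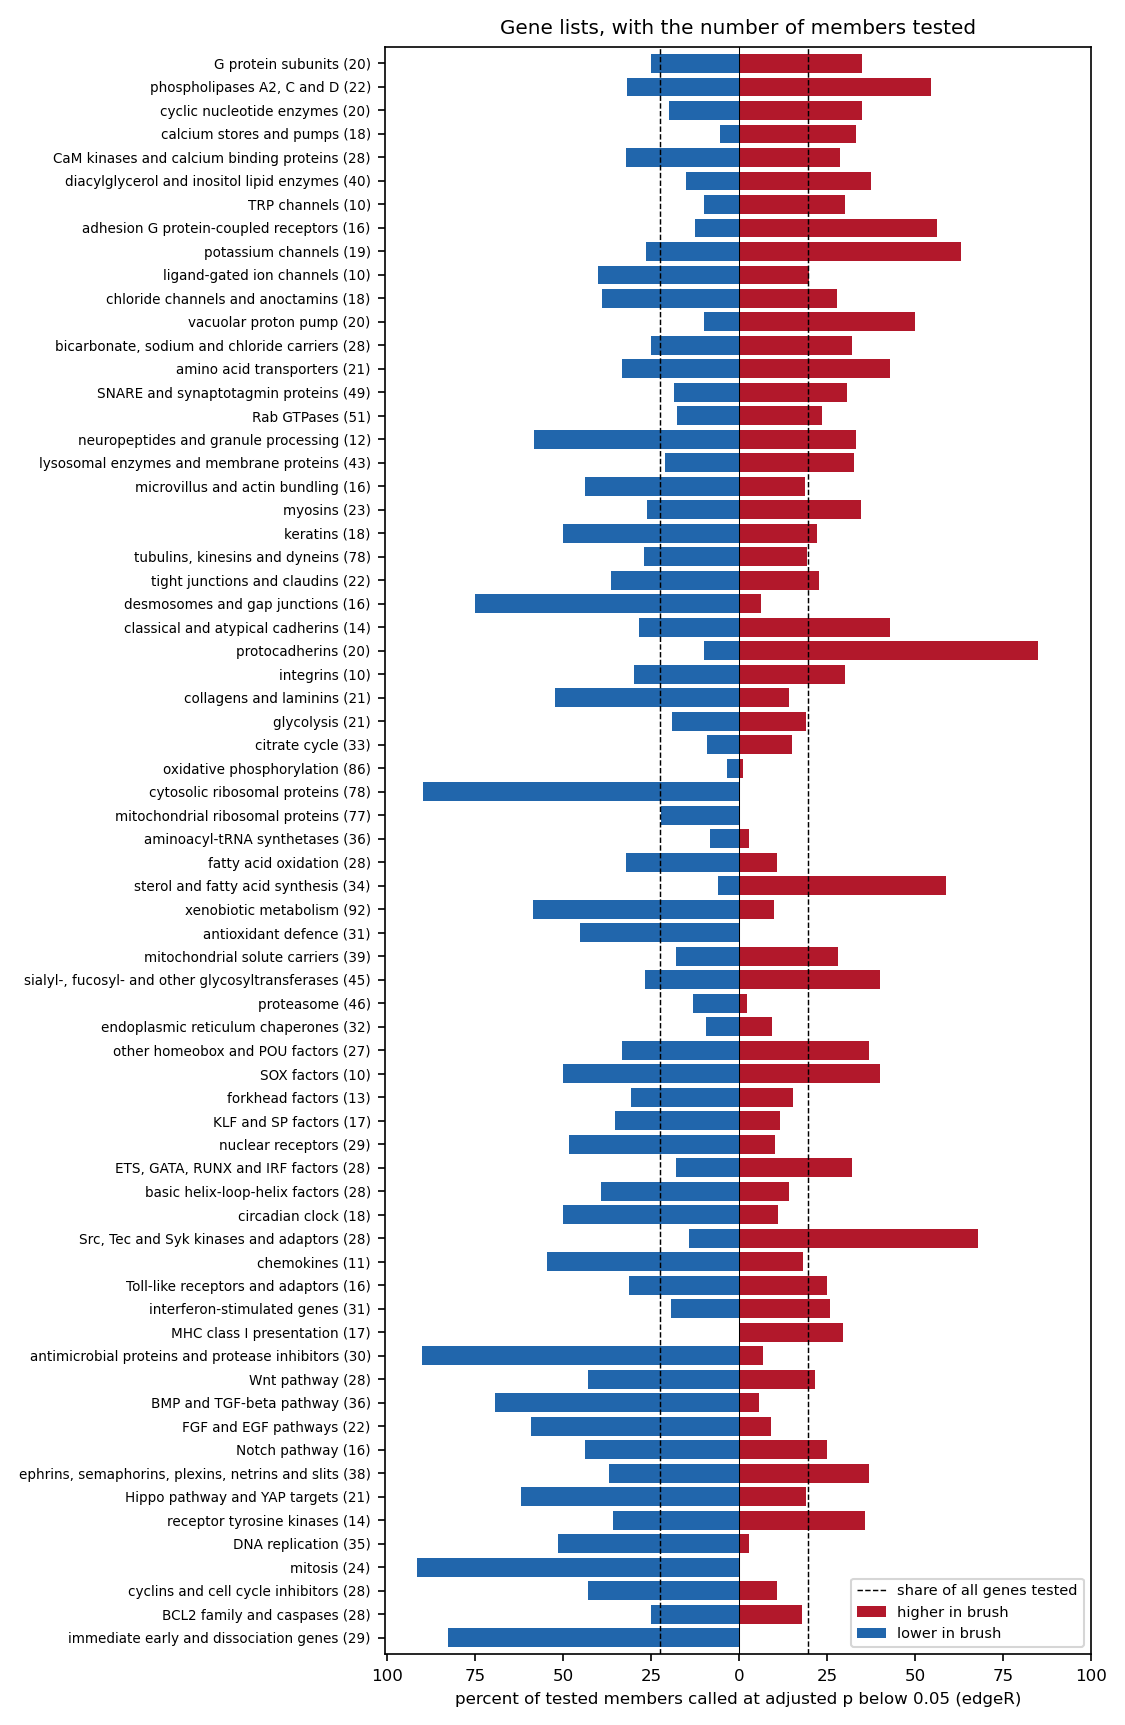
Percent of the tested members of each list with at least 10 of them, cell type marker lists left out, that were called higher in brush cells (red, to the right) or lower (blue, to the left), with the number tested in brackets and dashed lines at the shares of all genes tested, 19.5% and 22.4%. Protocadherins, Src-family signalling, potassium channels and sterol synthesis reach farthest to the right, and mitosis, ribosomal proteins and antimicrobial proteins farthest to the left.

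Among transcription factors the largest increases were in the homeobox genes Hmx2, Hmx3 and Hoxa7, the ETS factor Spib, Pou2f3 and the SOX gene Sox8. Spib, an ETS factor known from lymphocytes, ranged from 304 to 419 CPM (median 329) in brush libraries and from 0 to 2.17 (median 0) in EpCAM+ libraries. Its log2 fold change was 9.07 ± 0.67 (SE, n = 7 each, adjusted p = 3.53e-09), and no EpCAM+ library came near a brush library. Etv1, an ETS factor of sensory neurons, ranged from 183 to 381 CPM (median 278) and from 2.39 to 10.3 (median 4.10), a log2 fold change of 5.88 ± 0.35. Hmx2, the neighbour and relative of Hmx3, averaged 26 ± 14.8 CPM (SD, n = 7) with 0 counts in all EpCAM+ libraries, at least 258-fold higher against a floor of 3 counts over the group. Sox9, a factor of progenitor and glandular cells, averaged 342 ± 61.6 against 7.56 ± 3.70 CPM (log2 fold change 5.52 ± 0.34). Sox9 is also a cartilage gene, while the cartilage genes Col2a1 and Acan held 1 and 4 counts over all brush libraries.

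Only 7 of 39 Hox genes listed passed the filter on low counts, and a gene could pass through the brush libraries alone. Among those 7, 5 were higher (71.4%), all of the HoxA cluster, and 1 was lower (14.3%), against 19.5% and 22.4% of all genes. These counts describe the genes that passed. Hoxa7 averaged 8.95 ± 4.71 CPM and no EpCAM+ library held a count (at least 88.8-fold higher), and Hoxa4 averaged 28.7 ± 13.5 against 0.932 ± 0.874 CPM. Of 28 ETS, GATA, RUNX and IRF factors, 9 were higher and 5 lower. Other homeobox and POU factors were higher in 10 of 27 and lower in 9, and SOX factors in 4 and 5 of 10. By the same test 11 of 28 basic helix-loop-helix factors, 14 of 29 nuclear receptors and 6 of 17 KLF and SP factors fell, and 4, 3 and 2 rose. Id1, an inhibitor of helix-loop-helix factors and a target of bone morphogenetic protein (BMP) signalling, ranged from 1.21 to 8.87 CPM (median 6.14) in brush and from 94.2 to 524 (median 138) in EpCAM+ libraries, a log2 fold change of -5.16 ± 0.52. Its groups did not overlap, and the highest value was EpCAM+ replicate 5. Atoh8 (-7.55), the clock factor Npas2 (-5.90) and the Notch target Hes1 (-5.72) were among the factors with the lowest log2 fold changes.

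POU-domain factors are known to bind the octamer ATGCAAAT, and the promoters of genes that differed were searched for it on both strands. RefSeq promoters of GRCm38.p6, from 250 bases before to 50 after the gene's start, were found for 8731 of the tested genes. The octamer was present in 46 of 1659 promoters of genes higher in brush (2.77%), 21 of 1886 of genes lower (1.11%) and 51 of 5186 of genes not called (0.983%). Over all 27025 promoters of the table the share was 474, or 1.75%, so the tested genes that were not called lay below the table as a whole. Among genes higher by a log2 fold change of at least 1 the share was 3.31%, and among those lower by as much it was 1.11%. The carriers that were higher included the succinate receptor Sucnr1, the bitter taste receptor Tas2r108, the anoctamin Ano7, the IL-4 receptor chain Il4ra, the prostaglandin D synthase Hpgds, the calcium release channel Itpr3, the sterol regulator Srebf2 and the ETS factor Elf3. A match is a description of these letters and no evidence of binding.

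The following stretches of those promoters, read 5′ to 3′ on the strand of the gene and lying wholly before its start, show the octamer or its reverse complement ATTTGCAT in capitals. They are shown because they carry the octamer at genes of different functions that were higher in brush cells, and Atp6v1c2 is added as a carrier that was lower.
Sucnr1: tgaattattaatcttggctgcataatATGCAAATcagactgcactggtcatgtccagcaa
Tas2r108: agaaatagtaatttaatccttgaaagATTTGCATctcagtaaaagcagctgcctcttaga
Ano7: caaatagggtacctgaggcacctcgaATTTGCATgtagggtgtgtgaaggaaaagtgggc
Il4ra: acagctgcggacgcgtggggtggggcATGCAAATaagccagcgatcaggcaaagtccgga
Hpgds: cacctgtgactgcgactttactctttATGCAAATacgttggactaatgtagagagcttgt
Itpr3: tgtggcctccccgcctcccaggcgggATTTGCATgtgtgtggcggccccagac
Srebf2: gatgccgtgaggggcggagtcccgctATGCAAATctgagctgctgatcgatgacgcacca
Elf3: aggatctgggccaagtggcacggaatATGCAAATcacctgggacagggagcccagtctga
Atp6v1c2: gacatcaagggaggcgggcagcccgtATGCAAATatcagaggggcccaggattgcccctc

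On GRCm38 the stretch of Sucnr1 was at chr3:60081795-60081854 (plus strand), that of Tas2r108 at chr6:40493420-40493479 (plus) and that of Ano7 at chr1:93373696-93373755 (plus). Those of Il4ra, Hpgds and Itpr3 were at chr7:125552106-125552165 (plus), chr6:65144871-65144930 (minus) and chr17:27057251-27057303 (plus). Srebf2 was at chr15:82147047-82147106 (plus), Elf3 at chr1:135258587-135258646 (minus) and Atp6v1c2 at chr12:17324770-17324829 (minus). The octamer began 48 bases before the start in Sucnr1, 146 in Tas2r108, 174 in Ano7, 139 in Il4ra, 174 in Hpgds, 27 in Itpr3, 196 in Srebf2, 148 in Elf3 and 73 in Atp6v1c2. Sucnr1 ranged from 136 to 275 CPM (median 190) in brush libraries with 0 counts in every EpCAM+ library, at least 1894-fold higher. Elf3 averaged 1598 ± 510 against 604 ± 266 CPM (log2 fold change 1.40 ± 0.35), and Atp6v1c2 averaged 7.81 ± 5.66 against 205 ± 53.9 CPM (-4.71 ± 0.39).

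**Figure D3:**
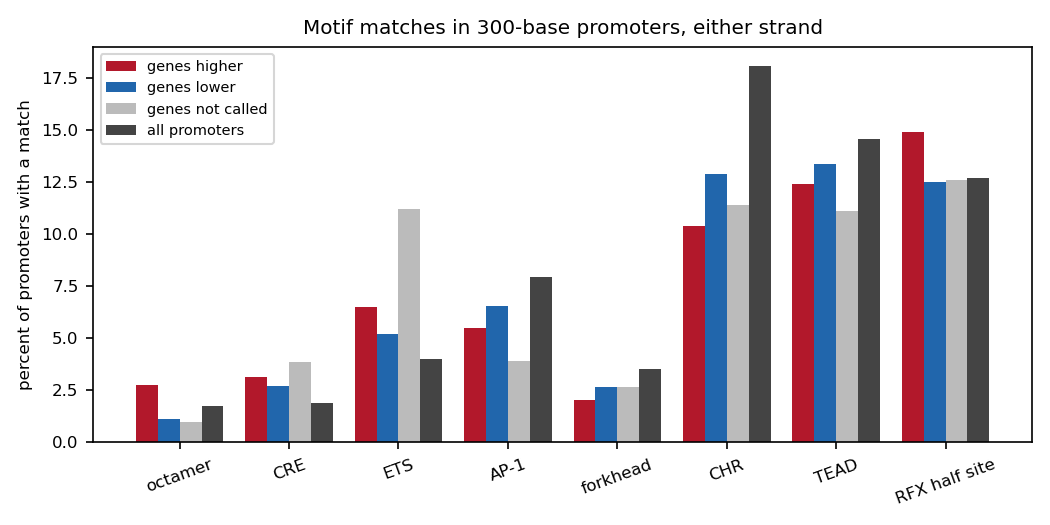
Percent of 300-base promoters holding each of 8 motifs on either strand, for genes higher in brush, lower, not called, and all promoters of the table. The octamer bars are 2.77, 1.11, 0.983 and 1.75%, and for the ETS motif the genes not called stand highest at 11.2%.

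Of the other motifs searched, the ETS motif CCGGAAGT was in 6.51% of promoters of genes higher, 5.2% of genes lower and 11.2% of genes not called. TGANTCA, the motif of the AP-1 factors Fos and Jun, was in 5.49%, 6.57% and 3.93%, and the shares over all promoters of the table were 4.00% for ETS and 7.93% for AP-1. The short motifs CHR (TTTGAA), TEAD (GGAATG) and RFX (GTTGCC) were found in 10.4 to 14.9% of promoters of genes called in either direction. The cAMP response element TGACGTCA and the forkhead motif TGTTTAC were found in 2.05 to 3.13% of those promoters. The motifs were searched separately, so a promoter can count for more than 1 of them.

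Genes of each step of the signal relay behind the receptors differed. Of 18 genes of calcium stores and pumps, 6 were higher and 1 lower, or 3 lower without EpCAM+ replicate 4. Atp2a3, a calcium pump of the endoplasmic reticulum, ranged from 684 to 3367 CPM (median 2066) in brush libraries and from 4.17 to 29.9 (median 14.4) in EpCAM+ libraries, a log2 fold change of 6.97 ± 0.56 (adjusted p = 1.12e-08). The lowest brush library stood far above the highest EpCAM+ library. Lrmp, a membrane protein of the same compartment that binds inositol trisphosphate receptors, averaged 6586 ± 1381 against 4.54 ± 5.74 CPM. The 3 inositol trisphosphate receptors moved apart. Itpr2 (log2 fold change 3.36 ± 0.22) and Itpr3 (1.79 ± 0.27) rose, while Itpr1 fell (-1.22 ± 0.26). In TPM, which scale for transcript length and let genes be compared, Itpr2 was at 112 ± 40.2 in brush cells, Itpr3 at 12.5 ± 7.21 and Itpr1 at 5.77 ± 2.15, against 8.68 ± 4.20, 2.59 ± 1.36 and 8.79 ± 3.73 in EpCAM+ cells.

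Phospholipases differed by isoform, with 12 of 22 phospholipases A2, C and D higher and 7 lower. Plcb2, the phospholipase C of taste cells, averaged 194 ± 93.7 against 0.315 ± 0.464 CPM, and Plcg2, the form used by immune receptors, 183 ± 52.7 against 5.88 ± 3.91. Plcd1, a phospholipase C known from skin, went the other way, from 0 to 1.93 CPM (median 0) in brush and from 14.4 to 60.6 (median 28.7) in EpCAM+ libraries. Plce1 and Plcd3 likewise fell, with log2 fold changes of -5.59 and -5.19. The groups overlapped for none of these 5 genes.

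Enzymes of inositol lipids and diacylglycerol were higher in 15 of 40 genes and lower in 6. Pik3r5, the regulatory subunit of the phosphoinositide 3-kinase that G protein beta-gamma subunits activate, ranged from 611 to 1203 CPM (median 864) in brush libraries and from 0 to 2.87 (median 0) in EpCAM+ libraries. Its catalytic partner Pik3cg averaged 732 ± 192 against 0.722 ± 1.67 CPM, and the opposing phosphatase Inpp5d averaged 249 ± 29.7 against 0.157 ± 0.310 CPM. All brush libraries lay above all EpCAM+ libraries for the 3 genes. Dgki, a kinase that removes diacylglycerol, ranged from 195 to 313 CPM (median 219) against 0.19 to 2.05 (median 1.52), a log2 fold change of 7.5 ± 0.38.

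Cyclic nucleotide enzymes were higher in 7 of 20 genes and lower in 4. Pde2a, a phosphodiesterase that cyclic GMP stimulates, ranged from 215 to 819 CPM (median 552) in brush and from 0 to 2.61 (median 0.278) in EpCAM+ libraries, a log2 fold change of 9.09 ± 0.64. The cyclic AMP phosphodiesterases Pde7a and Pde4b fell (-3.90 and -3.83). Of 9 regulators of G protein signalling, 5 were higher and 2 lower. Rgs2, which shortens signals through Gq, ranged from 759 to 2431 CPM (median 1059) in brush and from 23.3 to 101 (median 33.7) in EpCAM+ libraries (log2 fold change 4.92 ± 0.40). Brush replicate 4 and EpCAM+ replicate 5 were the highest Rgs2 library of their group, and the groups stayed apart. Rgs21, a short family member of taste cells, averaged 22.8 ± 15 CPM and no EpCAM+ library held a count (at least 226-fold higher), and Rgs10 fell by 4.39. The G protein alpha subunit Gna15 also fell, from 38.4 ± 15.6 CPM in EpCAM+ cells to 0.962 ± 0.479 in brush cells.

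Orphan and adhesion receptors added to the receptor set. Of 1444 olfactory and vomeronasal receptor symbols, 2 passed the filter on low counts, Olfr461 and Olfr12, and since their EpCAM+ counts were 1 and 0 they could pass only through the brush libraries. Olfr461 averaged 93.3 ± 16.9 CPM in brush cells, and Olfr12 33.6 ± 14.5. Of 16 adhesion receptors, 9 were higher and 2 lower, or 4 lower without EpCAM+ replicate 4. Adgrf3 averaged 140 ± 27.7 against 0.346 ± 0.633 CPM, and Adgre5, the leukocyte antigen CD97, fell by 3.37 on the log2 scale. Trpv4, a channel for osmotic and mechanical stimuli, was the TRP channel that fell (29.7 ± 6.44 against 130 ± 23.9 CPM), while 3 of the 10 tested rose. Pkd1, 1 of these 3, lost its call under several alternatives, among them RSEM counts (log2 fold change 0.4, edgeR adjusted p = 0.283).

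Subunits of the sodium-potassium pump differed between the groups. The beta subunit Atp1b3 ranged from 23.7 to 59.2 CPM (median 44.7) in brush and from 115 to 372 (median 154) in EpCAM+ libraries, a log2 fold change of -2.03 ± 0.28. The beta subunit Atp1b1 averaged 456 ± 60.8 against 762 ± 140 CPM, a smaller fall (-0.74 ± 0.20). The small regulatory subunits moved in opposite directions: Fxyd6 averaged 678 ± 161 against 2.90 ± 1.77 CPM, and Fxyd3 averaged 36.6 ± 33.5 against 336 ± 440. On the length-scaled TPM measure Fxyd6 was at 545 ± 234 in brush cells against 146 ± 55.3 for Fxyd3, while EpCAM+ cells had 1.63 ± 1.21 and 899 ± 464. None of these 4 genes overlapped between the groups.

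Potassium channel genes were higher in 12 of 19 tested and lower in 5, with a median log2 fold change of 4.10, where the median of all genes was -0.06. Only 19 of the 96 in the table passed the filter on low counts, and a gene could pass through the brush libraries alone, so these counts describe the genes that passed. The KCNQ family, voltage-gated channels that set the resting potential, included genes that rose. Kcnq1 ranged from 53.8 to 83.0 CPM (median 66.0) in brush and from 2.09 to 6.74 (median 3.53) in EpCAM+ libraries. Kcnq3 averaged 30.8 ± 8.01 CPM and no EpCAM+ library held a count (at least 305-fold higher). Kcne3, a subunit that holds KCNQ1 channels open in secretory epithelia, ranged from 0 to 0.845 CPM (median 0) in brush and from 13.4 to 79.8 (median 50.7) in EpCAM+ libraries, a log2 fold change of -7.06 ± 0.59. Kcnq1 and its partner thus lay on opposite sides, each without overlap between the groups. The inward rectifier Kcnj13 fell by 5.59 on the log2 scale.

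**Figure D4:**
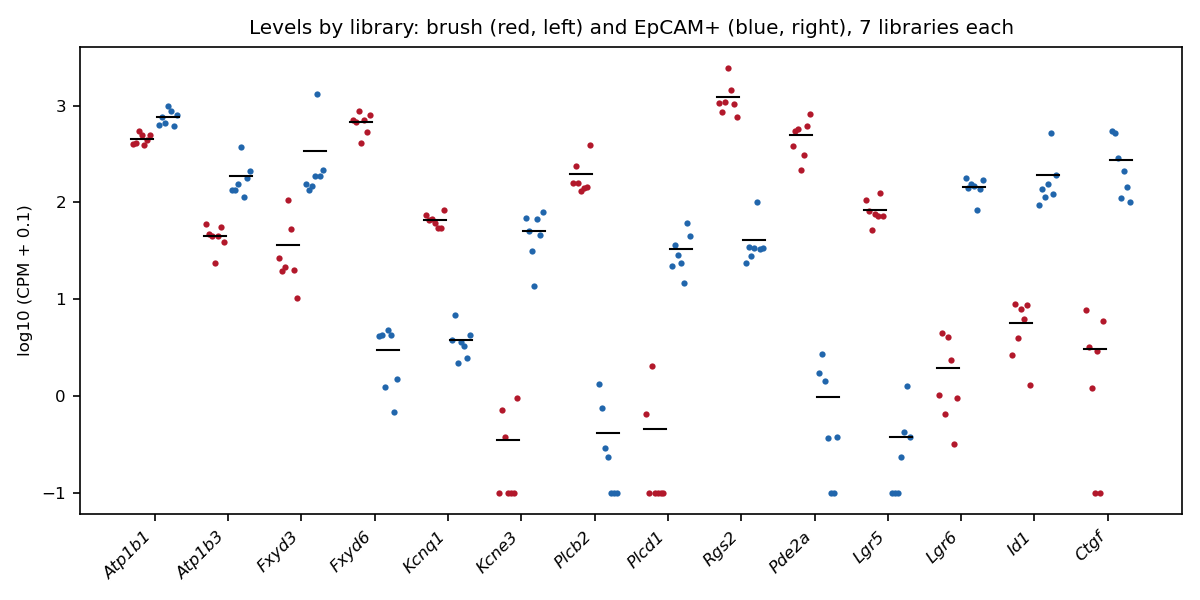
Levels of 14 genes in each library, as log10 of CPM plus 0.1, with brush libraries in red to the left of each name, EpCAM+ libraries in blue to the right and a bar at the log10 of the group mean plus 0.1; CPM is not scaled to gene length, so heights compare groups and not genes. Fxyd6, Kcnq1, Plcb2, Rgs2, Pde2a and Lgr5 stand higher in all brush libraries, and Atp1b3, Kcne3, Plcd1, Lgr6, Id1 and Ctgf stand lower in all of them.

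Water channel genes were lower, and channels and carriers of chloride, sodium and bicarbonate went both ways. Aqp5, the apical water channel of secretory cells, ranged from 10.4 to 92.7 CPM (median 19.8) in brush and from 935 to 2688 (median 1744) in EpCAM+ libraries, a log2 fold change of -5.76 ± 0.54. Aqp4 and Aqp3 fell (-5.86 and -5.65), so 3 of 4 tested aquaporins were lower and none higher. Of 18 chloride channels and anoctamins 5 were higher and 7 lower. The calcium-activated chloride channel Ano1 fell from 53.2 ± 41.1 to 2.00 ± 3.24 CPM and the epithelial sodium channel subunit Scnn1a from 72.4 ± 31.0 to 23.4 ± 5.87. Ano7, a relative of Ano1, averaged 168 ± 37.4 CPM in brush cells and 0.468 ± 0.416 in EpCAM+ cells. Among carriers of bicarbonate, sodium and chloride, 9 of 28 were higher and 7 lower, led by the bicarbonate carrier Slc4a8 (124 ± 33.2 against 2.21 ± 2.35 CPM).

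The vacuolar proton pump, which acidifies lysosomes and vesicles, was modestly higher. Of its 20 tested genes 10 were higher and 2 lower, and without brush replicate 4 and EpCAM+ replicate 5 these were 12 and 2, while leaving out EpCAM+ replicate 6 left 7 higher. The 2 that fell were Atp6v1c2 and Atp6v1b1. In TPM, Atp6v1c2 was at 141 ± 25.1 in EpCAM+ cells, where its paralog Atp6v1c1 was at 35.6 ± 16.2 and Atp6v1b1 at 10.8 ± 5.09. Of 43 lysosomal genes 14 were higher and 9 lower. Man2b1 and Hexa, which degrade glycans and glycolipids, rose by 2.69 ± 0.36 and 1.89 ± 0.31 on the log2 scale, whereas the cathepsins Ctsh and Ctsl fell (-3.91 and -2.33). Cd63, a membrane protein of late endosomes and granules, ranged from 8.69 to 45.4 CPM (median 12.6) in brush and from 109 to 638 (median 129) in EpCAM+ libraries, a log2 fold change of -3.74 ± 0.49 without overlap.

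Regulated secretion genes were higher in 15 of 49 SNARE and synaptotagmin genes and lower in 9. Cadps2, which primes dense-core vesicles for release, ranged from 111 to 202 CPM (median 151) in brush and from 3.26 to 8.70 (median 7.79) in EpCAM+ libraries, a log2 fold change of 4.52 ± 0.28. Rab3b, a GTPase of secretory vesicles, ranged from 75.1 to 122 CPM (median 80.2) and from 0 to 2.61 (median 1.67). The synaptic vesicle gene Syn3 averaged 83.5 ± 14.5 against 7.72 ± 3.48 CPM and the release-site gene Rims2 13.8 ± 5.07 against 1.36 ± 1.11. These 4 genes did not overlap between the groups. Syt8, a synaptotagmin, fell by 6.59.

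Neuropeptide and granule genes were lower in 7 of 12 and higher in 4. Sct, which encodes the hormone secretin, averaged 8.70 ± 8.19 CPM and no EpCAM+ library held a count (at least 86.3-fold higher). Calca, which encodes calcitonin and the peptide CGRP, ranged from 0 to 320 CPM (median 96.6) in brush and from 0.41 to 45.6 (median 4.57) in EpCAM+ libraries. Its groups overlapped, its log2 fold change was 3.45 ± 1.06 (adjusted p = 0.0136), and with limma voom it was not called (adjusted p = 0.371). Chga, a granule protein of neuroendocrine cells, ranged from 1.97 to 14.1 CPM (median 5.51) in brush and from 1.33 to 1432 (median 34.8) in EpCAM+ libraries. It was lower in the main test (-5.69 ± 1.25, adjusted p = 0.00106) but not with limma voom (adjusted p = 0.138), and its level varied over 3 orders of magnitude among EpCAM+ libraries. The secretogranin-like chaperone Scg5 averaged 33.1 ± 11.1 against 3.64 ± 2.22 CPM.

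The cytoskeleton differed in its filaments and microvilli. Nefl, the light neurofilament protein, ranged from 47.3 to 102 CPM (median 66.8) in brush libraries and had 0 counts in every EpCAM+ library, at least 704-fold higher. The neuronal markers Snap25 and Tubb3 stayed low beside it, at medians of 2.65 and 3.62 CPM in brush and 1.28 and 1.14 in EpCAM+ libraries. Of 18 keratins 4 were higher and 9 lower. Krt18 and Krt8, the pair of simple epithelia, rose by 2.07 ± 0.24 and 1.80 ± 0.26 on the log2 scale, and Krt222 averaged 52.7 ± 22.1 CPM with 0 counts in EpCAM+ cells. Espn, which bundles actin in long microvilli, averaged 215 ± 60.9 against 1.47 ± 0.622 CPM. By contrast Ezr, which ties microvilli to the membrane, fell by 2.19 ± 0.25, and 7 of 16 microvillus genes were lower and 3 higher.

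Cell contact genes differed by family. Tight junction genes were higher in 5 of 22 and lower in 8, cadherins outside the protocadherins in 6 and 4 of 14, and integrins in 3 and 3 of 10. Of 16 desmosome and gap junction genes 12 were lower and 1 higher, Dsg2. Gja1, which forms connexin 43 channels, ranged from 0 to 1.24 CPM (median 0) in brush and from 13.8 to 54.1 (median 28.4) in EpCAM+ libraries, a log2 fold change of -6.18 ± 0.59. Gjb2 and Gjb5 fell (-5.97 and -5.67), so connexin genes of 3 kinds were close to 0 in brush cells. Itgb7, an integrin chain known from lymphocytes that home to the gut, ranged from 183 to 538 CPM (median 367) in brush and from 6.09 to 18.3 (median 10) in EpCAM+ libraries (4.95 ± 0.35). Beside it, the leukocyte genes Ptprc, Laptm5, Coro1a and Cd52 were at medians of 21.9, 4.13, 0.736 and 0 CPM in brush and 0, 0.218, 0 and 0.835 in EpCAM+ libraries, and their part in its level was not tested. The neural adhesion genes Fat3 and Cdh2 averaged 24.3 ± 7.41 and 45.5 ± 18.8 CPM in brush cells against 0.123 ± 0.220 and 2.4 ± 1.69 in EpCAM+ cells.

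Only 20 of 70 protocadherins listed passed the filter on low counts, and a gene could pass through the brush libraries alone. Among those 20, 17 were higher (85%) and 2 lower (10%), against 19.5% and 22.4% of all genes, and 13 of the 17 belonged to the gamma cluster. The gamma genes share their last exons, so reads could be split among them in ways that are not given, and the count fell to 3 when a mean of at least 10 CPM was required. Genes of axon guidance were higher and lower in equal number, 14 and 14 of 38. Unc5d, a netrin receptor, averaged 32.2 ± 5.83 against 0.0769 ± 0.135 CPM and the slit receptor Robo2 69.4 ± 22.6 against 3.45 ± 1.86, whereas Epha2, an ephrin receptor of epithelia, fell by 4.57.

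In metabolism, genes of sterol synthesis were among those that rose. Of 34 genes of sterol and fatty acid synthesis 20 were higher (58.8%, where 19.5% of all genes were) and 2 lower, with a median log2 fold change of 1.47. The number higher stayed between 19 and 22 in every alternative fit. Acly, which makes the acetyl-CoA that the pathway starts from, ranged from 225 to 914 CPM (median 513) in brush and from 17.6 to 121 (median 42.3) in EpCAM+ libraries, a log2 fold change of 3.08 ± 0.44 (adjusted p = 1.12e-05). Sqle, the squalene epoxidase, ranged from 59.1 to 246 CPM (median 189) and from 10.6 to 33.4 (median 17.9), and rose by 2.93 ± 0.34. The groups did not overlap for either enzyme.

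Further along the route, Fdft1, which makes squalene, averaged 171 ± 35.8 against 26.3 ± 4.99 CPM and Cyp51, which demethylates lanosterol, 156 ± 57.8 against 26.6 ± 12.8. Hmgcs1, an early synthase of the pathway, was not called (1.18 ± 0.51, adjusted p = 0.0683), but passed with brush replicate 4 left out (adjusted p = 0.0211). The sterol isomerase Ebp was not called either (-0.70 ± 0.35, adjusted p = 0.122). The regulator rose as well. Srebf2, the transcription factor of the pathway, averaged 110 ± 17.1 against 35.1 ± 7.13 CPM. Among the fatty acid genes of the list, the elongase Elovl7 rose by 1.82 ± 0.26 while the carboxylase Acaca was not called. Fasn, the fatty acid synthase, was at 55.8 ± 13.6 and 53.1 ± 15.7 CPM (0.08 ± 0.24), Scd1 and Srebf1 were not called, and the desaturase Fads2 fell by 3.57. Brush libraries held 1857 to 3648 summed CPM over the list and EpCAM+ libraries 945.6 to 1558.

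**Figure D5:**
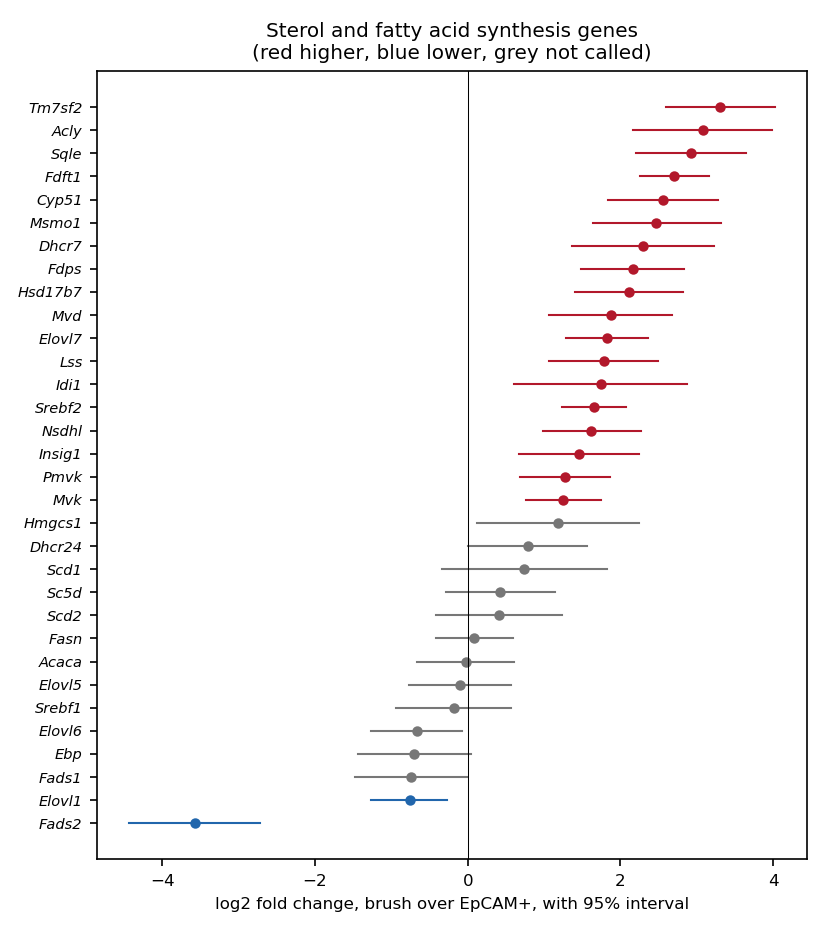
Log2 fold change of brush over EpCAM+ libraries with its 95% interval for genes of sterol and fatty acid synthesis, ordered by size, with those called higher in red, those called lower in blue and those not called in grey. Tm7sf2, Acly, Sqle and Fdft1 lead, Fasn lies at 0.08, and Fads2 lies alone at -3.57.

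Of 21 glycolysis genes 4 were higher and 4 lower, 19.05% each, close to the 19.5% and 22.4% of all genes. Without EpCAM+ replicate 5, 7 were lower. Pfkfb3, which makes the activator of phosphofructokinase, ranged from 34.2 to 92.4 CPM (median 56.9) in brush and from 1.09 to 2.83 (median 2.09) in EpCAM+ libraries, a log2 fold change of 4.82 ± 0.31. Slc2a1, the glucose carrier GLUT1, ranged from 55.2 to 175 CPM (median 123) and from 12.5 to 53.8 (median 32.8), with the lowest brush library just above the highest EpCAM+ library. Hexokinase 1 (Hk1) rose by 1.29 ± 0.36 and hexokinase 2 (Hk2) fell by 3.93, and Ldha, which makes lactate, fell from 823 ± 260 to 235 ± 20.9 CPM. Of the pyruvate dehydrogenase kinases Pdk1 rose by 2.02 ± 0.48 and Pdk4 fell by 5.10.

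Detoxification genes were lower. Of 92 tested xenobiotic genes 54 were lower and 9 higher, with a median log2 fold change of -2.28, and of 31 antioxidant genes 14 were lower and none higher. Without brush replicate 4 and EpCAM+ replicate 5 the lower counts were 56 and 18 and the higher counts 13 and 1. Gstm1, a glutathione transferase, ranged from 61.2 to 209 CPM (median 92.7) in brush and from 1490 to 7503 (median 1908) in EpCAM+ libraries. Prdx6, a peroxiredoxin of airway epithelium, ranged from 316 to 421 CPM (median 395) and from 2847 to 4399 (median 3200), a log2 fold change of -3.12 ± 0.22. Nfe2l2, the regulator NRF2 of this response, fell from 501 ± 110 to 74.7 ± 15.6 CPM. For all 3 genes every brush library lay below every EpCAM+ library. The exceptions included Ugt8a, which makes galactosylceramide and rose by 6.47 ± 0.61.

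Ribosomal proteins were lower across most of the list. Of 78 cytosolic ribosomal protein genes 70 were lower and none higher (89.7%, where 22.4% of all genes were lower), with a median log2 fold change of -1.56. Their summed CPM was 5114 to 17930 in brush and 12160 to 70150 in EpCAM+ libraries, with brush replicate 4 and EpCAM+ replicate 5 at the top of each range. Leaving out EpCAM+ replicate 5 left 50 genes lower, leaving out both left 73, and many of these genes have processed copies elsewhere in the genome that reads could be shared with. Rplp0, a protein of the ribosomal stalk, averaged 423 ± 204 against 1779 ± 1466 CPM. Of 86 oxidative phosphorylation genes, by contrast, 1 was higher and 3 lower. Without EpCAM+ replicate 5 these were 6 and 2, and without brush replicate 4 the number lower was 8. The median log2 fold change there was -0.48. Mitochondrial ribosomal proteins were lower in 17 of 77 (22.1%, close to the 22.4% of all genes) and higher in none, where 19.5% of all genes were. Without EpCAM+ replicate 5 these were 9 and 3, and without brush replicate 1, 2 or 6 the number lower was 11.

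Glycan synthesis was higher in 18 of 45 glycosyltransferase genes and lower in 12. St6gal2, a sialyltransferase, averaged 102 ± 25.8 CPM with 0 counts in EpCAM+ cells, B4galt6, which makes lactosylceramide, averaged 41.6 ± 5.74 against 0.128 ± 0.166 CPM, and Fut2, the secretor fucosyltransferase, 20.4 ± 10.4 against 0.980 ± 0.848. Galnt18, which starts mucin-type glycans, fell by 4.60.

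Growth signalling was lower in most pathways. Of 36 BMP and TGF-beta genes 25 were lower and 2 higher, Smad1 and Tgfb3, and the receptor Bmpr1b held 1 count over all brush libraries against a mean of 17.3 ± 5.05 CPM in EpCAM+ cells. Of 22 FGF and EGF genes 13 were lower, among them the receptors Fgfr3 (-6.67 ± 0.45), Fgfr2 (-4.31 ± 0.38) and Egfr (-2.27 ± 0.31). The ligand Fgf9 rose by 4.88 ± 0.59. Of 21 Hippo pathway genes and YAP targets 13 were lower and 4 higher. Ctgf, a YAP target, ranged from 0 to 7.73 CPM (median 2.79) in brush and from 102 to 544 (median 212) in EpCAM+ libraries (-6.32 ± 0.69). Cyr61, another target, fell from 754 ± 311 to 8.30 ± 6.07 CPM, while Yap1 itself fell by 1.46. The YAP inhibitor Amot rose by 3.98, while its relatives Amotl1 and Amotl2 had lower mean TPM in brush cells. Amot was at 18.2 ± 6.08 TPM in brush cells and 0.981 ± 0.822 in EpCAM+ cells. Amotl1 was at 0.36 ± 0.257 and 10.8 ± 1.53 TPM, and Amotl2 at 3.17 ± 2.33 and 11.1 ± 7.36.

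Wnt genes were lower in 12 of 28 and higher in 6, and the paired receptors for R-spondins parted. Lgr5, the R-spondin receptor that marks stem cells of the gut, ranged from 52.4 to 126 CPM (median 74.9) in brush and from 0 to 1.18 (median 0.136) in EpCAM+ libraries, a log2 fold change of 8.27 ± 0.51 (adjusted p = 4.22e-10). Lgr6, its relative, ranged from 0.217 to 4.33 CPM (median 0.92) and from 82.8 to 181 (median 146), a log2 fold change of -6.52 ± 0.49. Neither gene overlapped between the groups. The Wnt target and feedback inhibitor Nkd1 averaged 106 ± 26.2 against 1.29 ± 1.17 CPM, and the ligand Wnt4 fell by 6.12. Among receptor tyrosine kinases Kit (153 ± 36.0 against 19.5 ± 6.11 CPM) and Tek (56.7 ± 27.7 against 0.197 ± 0.319) rose, and Mst1r and Met fell (-6.03 and -2.94). Tek is otherwise an endothelial gene. Of 11 endothelial genes listed 2 were tested and both rose, Tek and the adhesion gene Esam (11.7 ± 5.83 against 1.33 ± 1.16 CPM), while Pecam1, Cdh5 and Kdr had totals of 3, 0 and 1 counts in brush cells.

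Genes of the circadian clock were lower in 9 of 18 and higher in 2. Npas2, a partner of BMAL1, ranged from 0 to 0.619 CPM (median 0.184) in brush and from 8.29 to 27.8 (median 18.6) in EpCAM+ libraries, a log2 fold change of -5.90 ± 0.48. Arntl, which encodes BMAL1, ranged from 9.86 to 28.5 CPM (median 19.6) and from 53.6 to 169 (median 150), a fall of 2.61. The repressors Per3 and Cry2 rose by 1.28 ± 0.26 and 0.93 ± 0.27. Times of day were not given, and a part of the time of collection in these differences was not tested.

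Immune signalling genes went both ways, with 31.4% of 140 tested higher and 36.4% lower, against 19.5% and 22.4% of all genes. Of 28 Src, Tec and Syk family kinases and adaptors 19 were higher and 4 lower (67.9% higher). Matk, a kinase that restrains Src-family kinases, ranged from 457 to 579 CPM (median 525) in brush and from 0 to 6.12 (median 1.18) in EpCAM+ libraries, a log2 fold change of 8.32 ± 0.58 without overlap. Ptpn6, the phosphatase SHP-1, averaged 1232 ± 228 against 27.6 ± 9.48 CPM, and the kinase Bmx 658 ± 263 against 23.4 ± 10.4. Among leukocyte markers Ptprc and Laptm5 held 573 and 93 counts in brush libraries against 1 and 7, and Cd52 held 2 against 17. The summed CPM of Ptprc, Laptm5, Coro1a and Cd52 was 13.4 to 36.8 in brush and 0 to 3.28 in EpCAM+ libraries, most of it from Ptprc. Matk was above the sum of these markers in every brush library, but its level relative to them in leukocytes is not given here. Of 28 leukocyte genes listed 5 were tested, of which 3 were called higher and 1, Lyz2, lower (32.3 ± 17 against 2742 ± 789 CPM). With Lyz2, which airway secretory cells also make, the list summed to 151.8 to 280.5 CPM in brush and 1377 to 3852 in EpCAM+ libraries. The part of leukocytes in these differences was not tested.

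Antigen presentation and interferon genes gave a mixed picture. Of 17 MHC class I presentation genes 5 were higher and none lower, and 8 were higher without brush replicate 4 and EpCAM+ replicate 5. H2-K1, a classical class I heavy chain, ranged from 1277 to 2512 CPM (median 1533) in brush and from 534 to 815 (median 700) in EpCAM+ libraries, a log2 fold change of 1.34 ± 0.23 without overlap. Its light chain B2m was at 361 ± 205 and 370 ± 346 CPM, a difference of -0.04 ± 0.42 that was within the spread. Reads can be shared among class I genes, so their split is uncertain. Of 31 interferon-stimulated genes 8 were higher (25.81%) and 6 lower (19.35%), against 19.5% and 22.4% of all genes. The number higher was 5 when EpCAM+ replicate 1, 4 or 7 was left out. Ifitm1, an antiviral membrane protein, ranged from 1.45 to 27.6 CPM (median 5.15) in brush and from 224 to 2164 (median 311) in EpCAM+ libraries (-6.41 ± 0.72), whereas Rsad2 rose by 3.73 ± 0.76. Secreted defence was lower, in 27 of 30 antimicrobial proteins and protease inhibitors, with 2 higher. The complement regulator Cfp and the chemokine scavenger Ackr4 rose by 4.93 ± 0.45 and 6.77 ± 0.40.

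Mitosis genes were at low levels in brush cells, with 39.2 to 92.9 summed CPM against 235.9 to 805.4 in EpCAM+ libraries. Of 24 mitosis genes 22 were lower and none higher, with a median log2 fold change of -4.58, and 18 of 35 DNA replication genes were lower and 1 higher, at 496.9 to 647.6 summed CPM in brush and 689.7 to 1203 in EpCAM+ libraries. Ube2c held 1 count over the brush libraries against 39.4 ± 29.3 CPM in EpCAM+ cells, and Mki67 fell from 32.8 ± 14.8 to 0.870 ± 0.876 CPM. Of 28 genes of the BCL2 family and caspases 5 were higher (17.9%) and 7 lower (25%), close to the 19.5% and 22.4% of all genes. Bcl2l14, of the BCL2 family, rose to 369 ± 49.7 from 6.27 ± 3.96 CPM, and the death genes Bik and Casp9 rose (1.99 ± 0.38 and 1.80 ± 0.34). Bok and Casp4, which also act in cell death, fell (-4.72 and -4.68).

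Immediate early genes, which tissue digestion is known to induce, were lower in 24 of 29 and higher in none. Fos averaged 909 ± 356 against 7496 ± 1322 CPM, Jun 573 ± 114 against 4284 ± 1665 and the heat shock gene Hspb1 6.26 ± 6.07 against 328 ± 256. The list summed to 5157 to 6661 CPM in brush and 20720 to 41730 in EpCAM+ libraries. Its part in the lower KLF factors, Id1, Ctgf and Cyr61, which are themselves induced by stress and serum, was not tested.

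Genes higher in brush cells spanned longer loci. The median span was 31.3 kb for genes higher in brush, 22.3 kb for those lower and 23.7 kb for those not called, on the GENCODE vM21 annotation of GRCm38. In the fifth of genes with the longest spans, from 71.3 kb, 27.0% were higher and 23.2% lower, and in the fifth with the shortest 14.7% and 26.6%. Of 49 long intergenic RNAs tested 21 (42.9%) were higher and 8 lower, and of 69 antisense genes 25 (36.2%) were higher and 8 lower. Whether the counting used strand is not given, so antisense reads cannot be told from those of the gene opposite.

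The genes within 200 kb of Chat were read as well, since the transgene holds sequence of that region. Chat itself averaged 248 ± 72.6 against 1.31 ± 1.37 CPM. 3425401B19Rik, at chr14:32659119-32685293, averaged 25.1 ± 7.84 against 0.329 ± 0.531 CPM (log2 fold change 6.33 ± 0.56). Ercc6 (0.58 ± 0.20, adjusted p = 0.0283) and 1700024G13Rik (-1.33 ± 0.46, adjusted p = 0.0247) were called with overlap between the groups, and both calls were lost under at least 1 alternative. Parg, at chr14:32201949-32297550, was not called (-0.54 ± 0.29, adjusted p = 0.149). Slc18a3, the acetylcholine vesicle carrier within the Chat locus, held 151 counts over the brush libraries and 1 over the EpCAM+ libraries and did not pass the filter.

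Many genes differed little. The 95% interval of the log2 fold change lay within -1 to 1 for 2934 genes and within -0.5 to 0.5 for 87. Sf3b1, a core splicing factor, ranged from 270 to 385 CPM (median 295) in brush and from 267 to 481 (median 284) in EpCAM+ libraries, a difference of 0.03 ± 0.20.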

How the data were processed

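RNA of 7 brush and 7 EpCAM+ samples was analysed, grouped by their labels. The main values are whole-number read counts for 26327 gene symbols, deposited unnormalized by the authors. Expected counts from RSEM and TPM, which the authors deposited per sample, per the file headers, served as an alternative (rounded to whole numbers) and for levels between genes. The submitters' processing notes name featureCounts, RSEM 1.2.21, STAR 2.4.2a, Picard, DESeq2 and mm10 without their roles. Annotation and strand setting: not given in the sources used here, so multigene families, overlapping and antisense genes are uncertain. Only 24712 symbols were shared with the RSEM tables.

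Counts were tested with edgeR 4.0.16 in R 4.3.3 (quasi-likelihood F test, TMM scaling, filterByExpr by group, group as the only term), which kept 11254 genes and removed 15073. Adjusted p-values are Benjamini-Hochberg over all tested genes, with calls below 0.05. Standard errors are |log2 fold change| over the root of F. CPM uses TMM library sizes, ribosomal RNA included. Where a group had 0 counts, the fold is a lower bound against 3 counts pooled over the group. Counts limit the precision of low values, and floors cover counting error only. The fit was tested on simulated counts. The members, lists, rule for named genes (the largest changes by CPM and within each list, the genes around Chat, those most variable and most alike) and alternatives were chosen with earlier results of these data known, and further list members were named after their values were seen. Tried as alternatives were DESeq2 1.42.0, limma voom (limma 3.58.1), RLE size factors, RSEM counts, all 18 libraries, other filters, ribosomal RNA left out, a replicate block and each library left out. Libraries of a group differed by more than sampling noise (chi-square per degree of freedom of at least 6.11), so all 14 were kept. The CD45+ samples entered only the fit of all 18 libraries. A few genes of the lists are counted in their totals but not reported here.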

Additional observations from a re-analysis of the deposited data

Results flagged for a closer look

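The following values lay apart from the other libraries of their group by Dixon's test at the 95% level. For normally distributed values, chance flags about 1 group in 20. The rate for CPM values such as these was not measured.

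Most were in 2 libraries. EpCAM+ replicate 5 was highest for Scgb1a1 (18570 CPM, others 974.6 to 6054), Rgs2 (100.8, others 23.34 to 34.58), Calca (45.56, others 0.4096 to 11.96), Cd63 (637.6, others 108.7 to 218.2), Gstm1 (7503, others 1490 to 2138), Id1 (524.3, others 94.2 to 192.2), Ifitm1 (2164, others 224.4 to 414.5) and Sf3b1 (481.3, others 267.4 to 288.0), and lowest for Krt5 (293.3, others 940.9 to 1265). Brush replicate 4 was highest for Scgb1a1 (189.3 CPM, others 9.92 to 69.52), Rgs2 (2431, others 758.5 to 1432), Cd63 (45.35, others 8.686 to 18.4), Gstm1 (209.0, others 61.17 to 117.8) and Ifitm1 (27.61, others 1.448 to 8.458).

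The same 2 libraries held the highest summed CPM of cytosolic ribosomal proteins (17930 in brush replicate 4, others 5114 to 8754, and 70150 in EpCAM+ replicate 5, others 12160 to 22140) and of oxidative phosphorylation genes (17360, others 7389 to 10320, and 31310, others 6377 to 13030). EpCAM+ replicate 5 also held the highest sum of xenobiotic genes (102600, others 35770 to 61090).

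Other libraries stood apart for single genes. EpCAM+ replicate 1 was highest for Pik3r5 (2.867 CPM, others up to 0.6417), replicate 3 for Etv1 (10.27, others 2.392 to 4.734), replicate 4 for Atp1b3 (371.6, others 114.6 to 213.4), replicate 6 for Lgr5 (1.183, others up to 0.3209) and replicate 7 for Matk (6.121, others up to 1.305). Brush replicate 3 was highest for Plcd1 (1.929, others up to 0.552), and brush replicate 7 was lowest for Prdx6 (315.6, others 386.3 to 420.8).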

How the results depend on the processing

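The number of genes higher in brush cells lay between 1705 (mean of at least 10 CPM) and 2826 (no filter on low counts), and the number lower between 1883 and 3628 under the same settings. With 1 library left out at a time the counts were 1958 to 2546 and 2372 to 2799. DESeq2 gave 2253 and 2902, limma voom 2473 and 2538, RLE size factors 2069 and 2717, RSEM counts 2198 and 2499, all 18 libraries 2459 and 2952, and the fit without ribosomal RNA 2072 and 2747. With a replicate block the counts were 2219 and 2374. The numbers did not pair the samples (correlations of -0.116 to 0.286 for the same number and -0.449 to 0.558 for others, with 2 of 7 brush libraries best matched by their own number).

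Of 449 named genes that were called, 35 lost the call under at least 1 alternative and 8 others gained it, and 1, Gins2, changed sign, with a log2 fold change of 0.47 from RSEM counts (adjusted p = 0.357). The cause was not tested. Depth limits the low genes, brush replicate 4 most of all, with 327785 counts outside ribosomal RNA.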

Other observations

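Of 14 fibroblast genes listed 3 were tested. Decorin (Dcn), a matrix proteoglycan, averaged 376 ± 101 CPM in EpCAM+ cells and 5.73 ± 4.60 in brush cells, and Fbln1, which encodes the matrix protein fibulin-1, averaged 53.1 ± 31.8 and 0.425 ± 0.582, while the fibroblast collagens Col1a1, Col1a2 and Col3a1 held 17, 12 and 60 counts over all EpCAM+ libraries. Ngfr, a basal cell receptor, held 1357 counts over the brush libraries and 1204 over the EpCAM+ libraries, unlike Krt5 with 397 and 29181. Pdgfra, a receptor of fibroblasts, held 200 counts in brush and 2 in EpCAM+ libraries, where Col1a1 held 7 and 17. Xist, the RNA that silences an X chromosome, ranged from 1.95 to 386 CPM among brush and from 2.85 to 311 among EpCAM+ libraries.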
